A study of Mus musculus with 12 samples.

Results

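Genes that most tissues express but mature beta cells keep low, often called disallowed genes, and genes linked to loss of beta cell identity were followed in pancreatic islets of mice, where beta cells, the source of insulin, lie among other hormone cells. The set held 9 genes of the 54532 Ensembl genes listed: Ldha, Slc16a1, Hk1, Oat, Acot7, Mgst1, Rest, Smad3 and Aldh1a3. They were chosen by name, from what is known of these genes in beta cells, with earlier results of these data known. All 9 passed the filter on low counts and stood among the 16076 genes tested.

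RNA was sequenced from islets in 12 libraries, in 4 groups of 3. The HFD KO group came from mice that lacked Sirt3, a mitochondrial NAD-dependent deacetylase, selectively in beta cells. They ate food in which fat gave 60% of calories for 36 weeks, after 6, 5 and 6 weeks of standard food in libraries 1, 2 and 3. The HFD WT group came from wild type mice fed the same diet for 36 weeks after 4 weeks of standard food. The STD KO and STD WT groups were knockout and wild type mice kept on a standard diet with 6.2% fat. All animals were labelled male, C57BL/6 and 40 weeks old, although the weeks of feeding given for the HFD KO mice add up to more than that age. The weeks before high fat feeding differed with genotype, so their effect and that of the knockout cannot be told apart under that diet. The labels do not name the promoter that drove the knockout. Libraries of a group differed by more than counting error (chi-square per degree of freedom from 28.6 to 110.0 between pairs), but no label ties each library to its own animal. The p-values rest on the spread among these libraries, part of which may be technical.

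Library totals lay between 16037709 and 20864920 counts. Sirt3 averaged 8.53 ± 2.73 CPM in HFD KO and 10.8 ± 1.36 CPM in HFD WT libraries, and 6.14 ± 0.40 CPM in STD KO and 10.6 ± 1.37 CPM in STD WT libraries (SD, n = 3 each). CPM are counts scaled to the same library total for every library, after TMM adjustment of that total. The library labelled HFD KO 2 had 11.5 CPM of Sirt3, inside the range of the wild type libraries. Sirt3 had no adjusted p under 0.05 by edgeR in HFD KO against HFD WT (log2 fold change −0.35, adjusted p = 0.363). The same held in STD KO against STD WT (−0.79, adjusted p = 0.156) and over both diets (−0.57, adjusted p = 0.0503). Why Sirt3 RNA remained in the KO libraries was not tested. A knockout in beta cells alone would spare the gene in other islet cells, which whole-islet RNA does not separate. These values therefore say little about whether each library is rightly labelled. Ins1 and Ins2 took 19.7% to 33.5% of counts, and summed acinar markers, of digestive enzyme cells around the islets, ranged from 5819 to 31920 CPM.

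A beta cell must turn glucose into ATP in proportion to blood glucose, and several disallowed genes would break that link. Lactate dehydrogenase A and the monocarboxylate transporter MCT1 would let pyruvate leave as lactate or enter from the blood, and hexokinase 1 would phosphorylate glucose even when glucose is low. A misplaced MCT1 is known in humans to cause insulin release during exercise. Aldh1a3 marks beta cells that lose their identity in diabetic mice, and REST represses the neuron-like secretory genes that beta cells use. The other cells of an islet preparation (alpha, ductal, acinar, vascular and immune cells) can express many of these genes, and whole-islet RNA does not separate them. A lower level in bulk RNA can mean fewer cells of a type or less RNA per cell, and these cannot be told apart.

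The RefSeq tables gave a promoter for 7 of the 9 genes, in 10 windows of the 250 bases before a transcription start (build GRCm38.p6). The lactate pair is shown because, of these 7, its 2 genes alone held CACGTG, the palindromic E-box bound by basic helix-loop-helix factors such as MYC and USF. CACGTG is in capitals and lies 145 and 48 bases before the first of 2 Ldha starts and 200 bases before the Slc16a1 start. The Ldha window printed is chr7:46845554-46845803 and the Slc16a1 window chr3:104638414-104638663, both on the plus strand and printed 5′ to 3′. The window of the second Ldha start (chr7:46846832-46847081) held neither CACGTG nor any motif named below.
Ldha: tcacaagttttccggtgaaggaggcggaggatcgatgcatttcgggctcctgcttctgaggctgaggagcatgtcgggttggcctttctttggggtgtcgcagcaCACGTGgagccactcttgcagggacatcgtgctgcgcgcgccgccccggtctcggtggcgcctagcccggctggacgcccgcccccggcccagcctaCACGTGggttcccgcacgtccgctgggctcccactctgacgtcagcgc
Slc16a1: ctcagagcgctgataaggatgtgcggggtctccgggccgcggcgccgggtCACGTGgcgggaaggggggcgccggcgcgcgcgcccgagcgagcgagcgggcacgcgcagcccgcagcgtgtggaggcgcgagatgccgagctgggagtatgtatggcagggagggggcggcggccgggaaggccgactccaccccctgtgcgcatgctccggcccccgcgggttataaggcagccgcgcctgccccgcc
Of all 32851 RefSeq windows of that length, 6.02% held CACGTG at least once and 0.429% held it 2 or more times. The shorter ACGTG, the core of the hypoxia-inducible factor site and contained in every CACGTG on both strands, stood in 16.6% of all windows and, among the 7 genes, again in those of Ldha and Slc16a1 only. GGGCGG, an Sp1-type GC box, stood in 32.7% of all windows and in those of 5 of the 7 genes. TTCNNNGAA, the palindrome bound by STAT factors, stood in 7.02% of all windows and in none of these. Each was searched on both strands, and a match describes these letters alone.

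Per gene length, the 9 genes spanned a wide range in whole islets. In the deposited FPKM (fragments scaled by gene length and library total), the medians over 12 libraries were 43.3 for Ldha, 28.1 for Mgst1, 23.4 for Oat, 12.9 for Hk1 and 7.11 for Smad3. The medians of the others were 6.33 FPKM for Acot7, 4.53 for Aldh1a3, 0.945 for Rest and 0.921 for Slc16a1. The median of these 9 gene medians was 7.11 FPKM, against 139.4 FPKM for 24 beta cell identity genes. The median rank of Ldha stood above 88.4% of the genes tested, and those of Rest and Slc16a1 stood above 17.6% and 17.3%.

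Some neighbours in that order did not separate. Ldha stood above Mgst1, Oat above Hk1 and Hk1 above Smad3 in all 12 libraries. Mgst1 stood above Oat in 7, Smad3 above Acot7 in 9, Acot7 above Aldh1a3 in 8, Aldh1a3 above Rest in 11 and Rest above Slc16a1 in 7 of 12. The order also rests on the gene length used. The length behind the Hk1 values was 1297 bases, against 8532 bases over all its annotated exons. With the lengths of all annotated exons Oat moved above Mgst1, Acot7 above Hk1 and Smad3, and Slc16a1 above Rest.

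**Figure D1:**
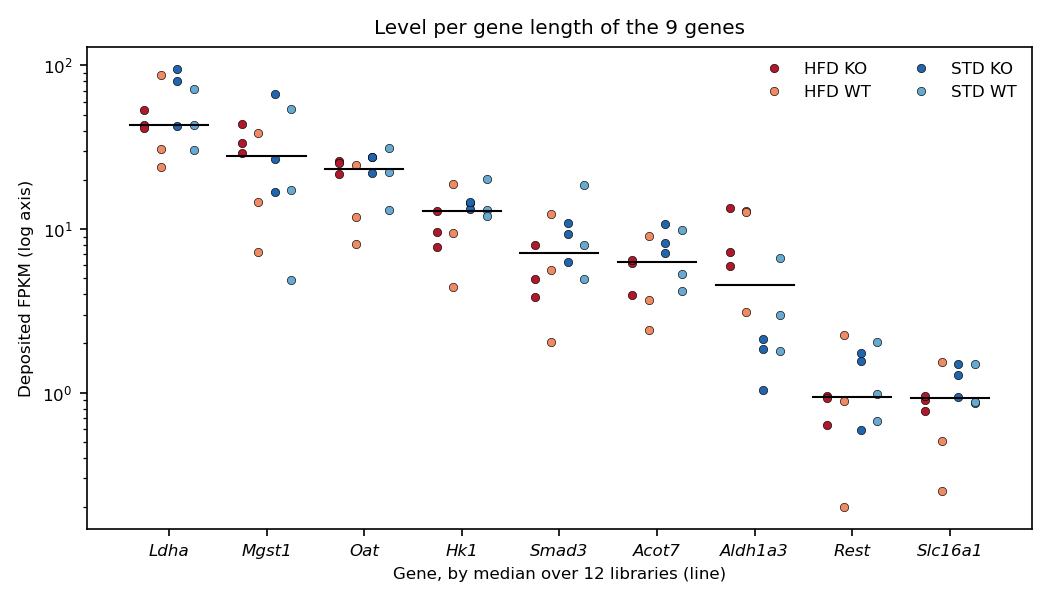
Deposited FPKM of the 9 genes (log axis) in each of 12 libraries, coloured by group, with a line at the median. The genes run from Ldha (median 43.3 FPKM) to Slc16a1 (0.921 FPKM), and the points of neighbouring genes overlap.

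Ldha stood at 1.47 to 7.45 times the FPKM of Ldhb (median 3.98), the other main lactate dehydrogenase subunit. Ldha exceeded Slc16a1 by 34.9 to 96.3 times in FPKM.

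The knockout and the high fat diet left none of the 9 genes past the threshold (adjusted p under 0.05, quasi-likelihood test of edgeR, Benjamini-Hochberg adjustment over all genes tested). HFD KO against HFD WT called 0 of 9, where 7.4% of all genes were called, and STD KO against STD WT called 0 of 9, where 1.71% were. The mean of both genotype comparisons called 0 of 9 (7.77% of all genes), as did their difference, the interaction of genotype and diet (0% of all genes). In these 4 comparisons, 0 of 9 had an unadjusted p under 0.05, and DESeq2 and limma also called 0. Of all 16076 genes, 3912, 1392, 3431 and 1271 had an unadjusted p under 0.05 by edgeR, in the order given. HFD WT against STD WT called 0 of 9 (0% of all genes), HFD KO against STD KO 0 of 9 (0.0435%) and the mean of both diet comparisons 0 of 9 (0.0249%). In each of these 3, Aldh1a3 alone had an unadjusted p under 0.05, where 762, 2010 and 1197 of all 16076 genes did. DESeq2 called it in HFD KO against STD KO and in the mean, while limma called none. At the shares of adjusted calls, fewer than 1 of 9 genes would be called in any of the 7 comparisons. A count of 0 of 9 called thus does not differ from the background.

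The groups of 3 overlapped for 9 of 9 genes in HFD KO against HFD WT, STD KO against STD WT and HFD WT against STD WT. Among all genes tested, 24.5%, 14.8% and 9.59% had groups that did not overlap in those comparisons, in that order. In HFD KO against STD KO, 3 of 9 did not overlap, where 12.1% of all genes did not: Aldh1a3 was higher and Hk1 and Acot7 were lower in every HFD KO library.

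**Figure D2:**
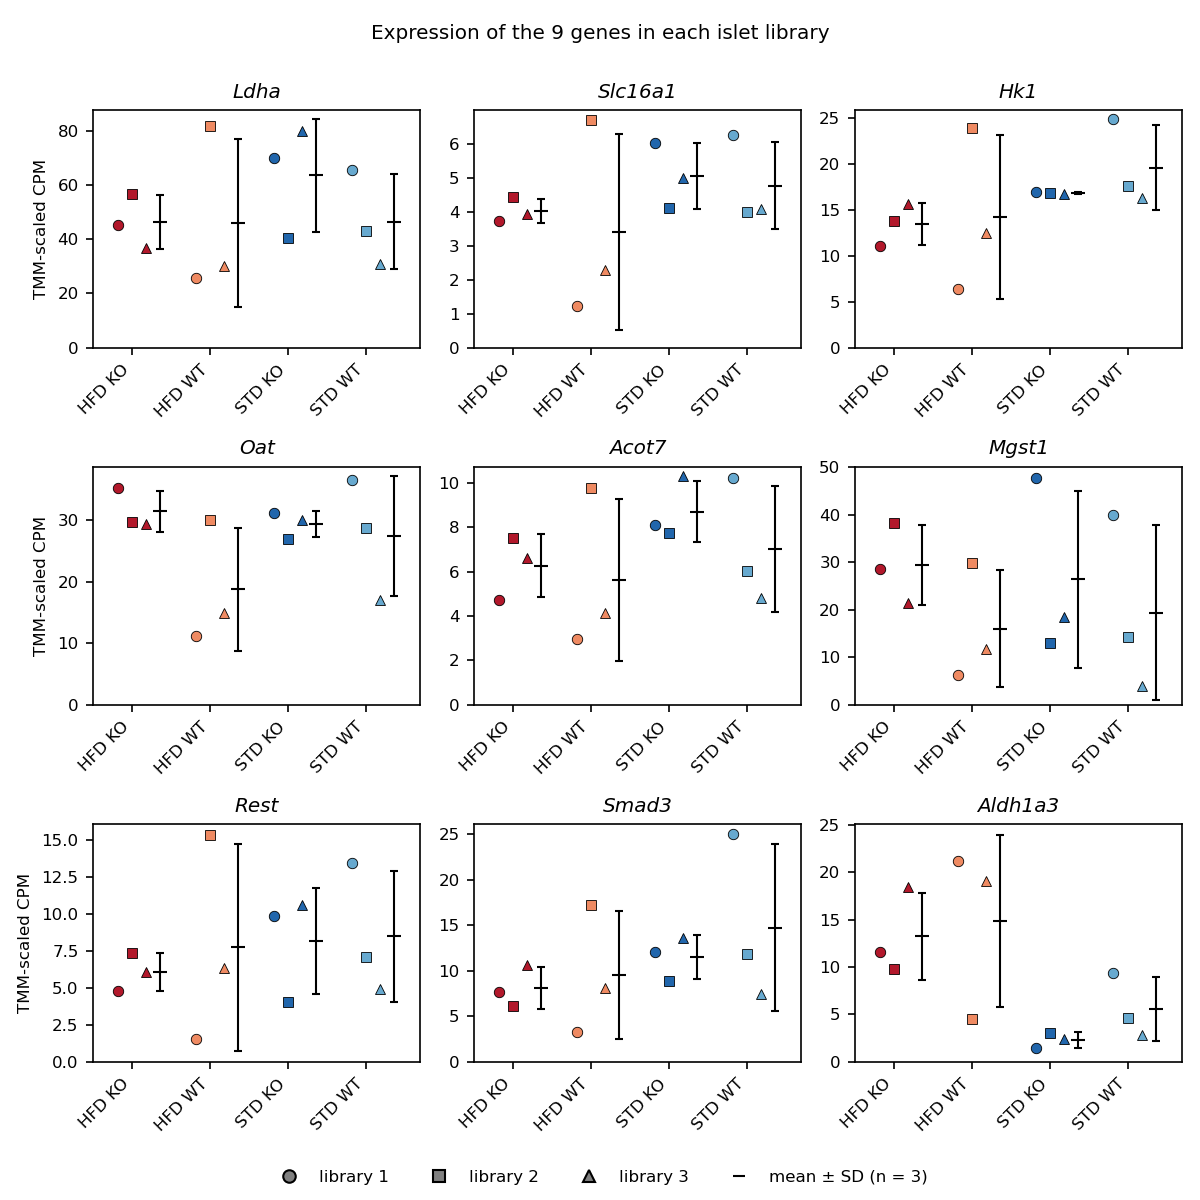
TMM-scaled CPM of each gene in every library, by group, with symbols for libraries 1, 2 and 3 and bars for the mean ± SD (n = 3). HFD WT 2 and STD WT 1 stand high for most genes, and Aldh1a3 alone is low in HFD WT 2 (4.47 CPM).

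**Figure D3:**
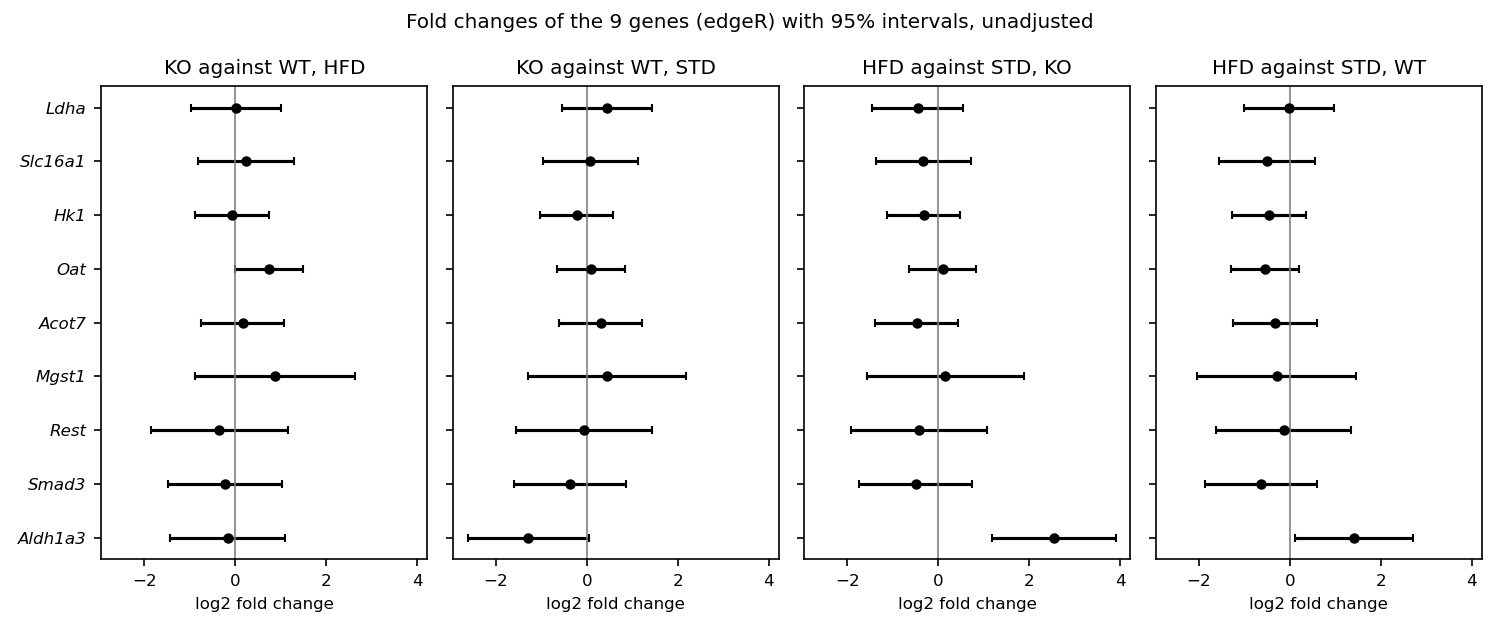
Log2 fold changes of the 9 genes in 4 comparisons (edgeR), with unadjusted 95% intervals. Aldh1a3 has the largest value, 2.54 in HFD KO against STD KO, and most other intervals span 0.

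Ldha (ENSMUSG00000063229, mm10 chromosome 7, 46841475 to 46855627, plus strand) makes lactate from pyruvate. Under the high fat diet it stood at 45.4, 56.8 and 36.9 CPM in KO libraries 1 to 3, against 25.8, 81.9 and 30.3 CPM in WT libraries 1 to 3. On the standard diet the values were 70.2, 40.3 and 80.1 CPM in KO, against 65.5, 43.2 and 30.9 CPM in WT libraries. The WT values enclosed all KO values under the high fat diet, and 2 of 3 STD KO libraries lay above every STD WT library. Fold changes on the log2 scale were 0.01 in HFD KO against HFD WT (95% interval −0.98 to 1.01) and 0.45 in STD KO against STD WT (−0.54 to 1.44). The adjusted p-values were 0.992 and 0.999 by edgeR. These intervals leave room for a doubling in either genotype comparison, and mouse Ldha has processed pseudogenes with which reads may be shared.

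Slc16a1 (ENSMUSG00000032902, chromosome 3, 104638668 to 104658462, plus strand) encodes the transporter MCT1, which carries lactate and pyruvate through the plasma membrane. HFD KO libraries had 3.71, 4.42 and 3.93 CPM, against 1.23, 6.68 and 2.29 CPM in HFD WT libraries. Under the standard diet it stood at 6.03, 4.10 and 4.98 CPM in KO, against 6.24, 3.99 and 4.07 CPM in WT libraries. The HFD KO libraries sat close together inside the wide HFD WT range. The log2 fold change was 0.24 in HFD KO against HFD WT (interval −0.81 to 1.30) and 0.08 in STD KO against STD WT (−0.96 to 1.12). Counts per library ran from 23 to 136, so counting error added to its spread.

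Around this pair, 16 genes of lactate and pyruvate handling were followed, 15 of them tested. In HFD KO against HFD WT 1 rose and 1 fell, where 627 and 562 of all 16076 genes did. The list's median log2 fold change was −0.03, beside 0.00 over all genes. Me1, the malic enzyme that makes pyruvate and NADPH, stood at 37.3, 31.2 and 34.7 CPM in HFD KO, against 20.5, 21.2 and 20.7 CPM in HFD WT libraries (log2 fold change 0.73, adjusted p = 0.049). Pdk2, a kinase that inhibits pyruvate dehydrogenase, stood at 19.3, 18.0 and 24.9 CPM in HFD KO, against 29.6, 31.2 and 31.4 CPM in HFD WT libraries (−0.57, adjusted p = 0.0292). The groups did not overlap for either gene. Leaving out 1 library at a time ended the call of Me1 in 9 of 12 fits and that of Pdk2 in 4, and with the replicate number as a block Pdk2 had an adjusted p of 0.0625. In STD KO against STD WT 0 of 15 passed by edgeR, with 1 at an unadjusted p under 0.05, where 1392 of all 16076 genes were.

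Hk1 (ENSMUSG00000037012, chromosome 10, 62268855 to 62379908, minus strand) is the high-affinity hexokinase of most tissues. Under the high fat diet it stood at 11, 13.7 and 15.6 CPM in KO, against 6.38, 23.9 and 12.4 CPM in WT libraries. STD KO libraries had 16.9, 16.8 and 16.6 CPM, against 24.9, 17.6 and 16.3 CPM in STD WT libraries. The STD KO libraries were nearly equal, and each exceeded the highest HFD KO library. The log2 fold change of HFD KO against STD KO was −0.32 (SE 0.37, adjusted p = 0.759 by edgeR). It was −0.08 in HFD KO against HFD WT (interval −0.89 to 0.73) and −0.22 in STD KO against STD WT (−1.03 to 0.58). Its relatives Hk2, Hk3 and Hkdc1 did not pass in either genotype comparison by edgeR, and 0 of them had an unadjusted p under 0.05. Of all 16076 genes, 3912 (high fat diet) and 1392 (standard diet) had such a p. Hk3, the hexokinase of myeloid cells, had a log2 fold change of 0.76 over both diets (adjusted p = 0.388).

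Oat (ENSMUSG00000030934, chromosome 7, 132557478 to 132576398, minus strand) encodes ornithine aminotransferase, a mitochondrial enzyme that joins ornithine to proline and glutamate. HFD KO libraries had 35.3, 29.7 and 29.4 CPM, against 11.2, 30.1 and 14.9 CPM in HFD WT libraries. On the standard diet the values were 31.1, 27.0 and 30.1 CPM in KO, against 36.5, 28.7 and 17.0 CPM in WT libraries. All 6 KO libraries lay between 27.0 and 35.3 CPM, whereas the WT libraries ran from 11.2 to 36.5 CPM. The log2 fold change in HFD KO against HFD WT was 0.75 (SE 0.34, unadjusted p = 0.0508, adjusted p = 0.207 by edgeR). That value leaned on HFD WT 2, the highest HFD WT library for every gene of the set except Aldh1a3. Without HFD WT 2 the log2 fold change was 1.25 and the adjusted p was 0.0189, and over both diets the adjusted p was 0.0378 in place of 0.348. Of 24 alternative fits of HFD KO against HFD WT, this 1 alone called Oat. It called 1336 of all genes tested in that comparison, against 1189 in the main fit. In STD KO against STD WT the value was 0.10 (interval −0.64 to 0.84).

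Among 12 other genes of ornithine and proline metabolism, 2 rose and 1 fell in HFD KO against HFD WT (median log2 fold change −0.01). Of all 16076 genes, 627 rose and 562 fell in that comparison. Odc1, the ornithine decarboxylase that starts polyamine synthesis, stood at 239.5, 231.1 and 239.3 CPM in HFD KO, against 75.3, 104.4 and 76.2 CPM in HFD WT libraries (log2 fold change 1.47, adjusted p = 0.0021). Pycr1, a mitochondrial enzyme of proline synthesis, stood at 96.2, 83.0 and 89.3 CPM in HFD KO, against 51.8, 38.3 and 42.2 CPM in HFD WT libraries (1.02, adjusted p = 0.00189). Glul, which makes glutamine from glutamate, stood at 216.2, 196.7 and 220.0 CPM in HFD KO, against 533.7, 372.6 and 489.7 CPM in HFD WT libraries (−1.14, adjusted p = 0.00309). The groups separated for each of these 3, and each kept its call in all 24 alternative fits. In STD KO against STD WT 0 of 12 passed by edgeR, with 4 at an unadjusted p under 0.05, where 1392 of all 16076 genes were.

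Acot7 (ENSMUSG00000028937, chromosome 4, 152178134 to 152271855, plus strand) splits long-chain acyl-CoA into free fatty acid and coenzyme A. Under the high fat diet it stood at 4.70, 7.53 and 6.60 CPM in KO, against 2.95, 9.78 and 4.12 CPM in WT libraries. Under the standard diet it stood at 8.09, 7.74 and 10.3 CPM in KO, against 10.2, 6.02 and 4.79 CPM in WT libraries. Every HFD KO library lay below every STD KO library, by a small margin between HFD KO 2 and STD KO 2. The log2 fold change of HFD KO against STD KO was −0.47 (SE 0.42, adjusted p = 0.667 by edgeR). It was 0.16 in HFD KO against HFD WT (interval −0.76 to 1.08) and 0.31 in STD KO against STD WT (−0.60 to 1.22). Of 9 other acyl-CoA thioesterases, 0 passed in HFD KO against HFD WT by edgeR, with 3 at an unadjusted p under 0.05. Of all 16076 genes, 3912 had such a p in that comparison. The mitochondrial Acot9 came closest (log2 fold change 1.05, adjusted p = 0.0505, and 0.00965 by DESeq2).

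Mgst1 (ENSMUSG00000008540, chromosome 6, 138140316 to 138156755, plus strand) encodes a membrane-bound glutathione transferase. It varied most of the 8 genes other than Aldh1a3, with an 11.9-fold range over the 12 libraries. HFD KO libraries had 28.6, 38.3 and 21.4 CPM, against 6.33, 29.9 and 11.7 CPM in HFD WT libraries. STD KO libraries had 47.7, 13.0 and 18.5 CPM, against 39.9, 14.2 and 4.01 CPM in STD WT libraries. The groups overlapped under both diets, under the high fat diet through HFD WT 2, which lay above HFD KO 1 and HFD KO 3. Within each of the 3 same-numbered pairs of HFD KO and HFD WT libraries the KO library was the higher. The labels do not give these pairs, which were inferred from these same data, so the order within them is only a description. Fold changes on the log2 scale were 0.88 in HFD KO against HFD WT (interval −0.87 to 2.64, adjusted p = 0.537 by edgeR, and 0.151 with the replicate number as a block) and 0.44 in STD KO against STD WT (−1.30 to 2.18). Of 12 other glutathione transferases, 2 fell in HFD KO against HFD WT and 1 in STD KO against STD WT, while none rose. Of all 16076 genes, 562 and 59 fell in those comparisons, while 627 and 216 rose. Gstm2 stood at 8.53, 10.5 and 10.2 CPM in HFD KO, against 17.0, 21.5 and 16.3 CPM in HFD WT libraries. On the standard diet the values were 11.6, 11.9 and 12.3 CPM in KO, against 27.8, 23.8 and 19.9 CPM in WT libraries. Its log2 fold changes were −0.90 (adjusted p = 0.00609) and −0.996 (adjusted p = 0.00798), and the groups did not overlap. Gstm1 fell by 0.93 under the high fat diet (adjusted p = 0.0199), a call lost in 3 of 12 fits without 1 library, and close homology among Gstm genes leaves the split of reads between them uncertain.

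Rest (ENSMUSG00000029249, chromosome 5, 77265491 to 77286432, plus strand) encodes the repressor of neuronal genes. Under the high fat diet it stood at 4.82, 7.39 and 6.06 CPM in KO, against 1.55, 15.4 and 6.35 CPM in WT libraries. Under the standard diet it stood at 9.84, 4.04 and 10.6 CPM in KO, against 13.5, 7.10 and 4.90 CPM in WT libraries. The lowest and the highest of all 12 libraries were both HFD WT libraries. The log2 fold change was −0.35 in HFD KO against HFD WT (interval −1.85 to 1.16) and −0.06 in STD KO against STD WT (−1.55 to 1.43). Of 16 corepressors and target genes of REST, 4 fell and none rose in HFD KO against HFD WT (median −0.33). Of all 16076 genes, 562 fell and 627 rose there, with a median of −0.002. Kcnh2, a potassium channel, stood at 41.5, 44.4 and 71.0 CPM in HFD KO, against 102.6, 88.9 and 113.2 CPM in HFD WT libraries (log2 fold change −0.96, adjusted p = 0.0111). The synaptotagmin Syt7 (−0.84, adjusted p = 0.0262), the gap junction gene Gjd2 (−0.84, adjusted p = 0.0296) and the corepressor Rcor2 (−0.80, adjusted p = 0.041) fell with it. Over both diets 4 of 16 fell and 1 rose, where 578 and 671 of all 16076 genes did. Scg2, a granin of secretory granules, was among those that fell (−0.62, adjusted p = 0.0367). Cplx1, a complexin that regulates vesicle fusion, rose over both diets (1.26, adjusted p = 0.045), at a low level of 0.581 ± 0.383 CPM in HFD KO and 0.319 ± 0.102 CPM in HFD WT, and 1.86 ± 0.502 CPM in STD KO and 0.587 ± 0.0945 CPM in STD WT libraries (SD, n = 3 each). In fits without 1 library, the calls of Kcnh2, Syt7, Gjd2, Rcor2 and Scg2 were lost in 2, 4, 6, 10 and 9 of 12, in that order, and that of Rcor2 also with the replicate block (adjusted p = 0.11). In STD KO against STD WT 0 of 16 passed by edgeR, with 2 at an unadjusted p under 0.05, where 1392 of all 16076 genes were.

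Smad3 (ENSMUSG00000032402, chromosome 9, 63646767 to 63757994, minus strand) carries TGF-beta and activin signals to the nucleus. HFD KO libraries had 7.66, 6.08 and 10.6 CPM, against 3.27, 17.2 and 8.12 CPM in HFD WT libraries. STD KO libraries had 12.1, 8.82 and 13.6 CPM, against 25.0, 11.8 and 7.41 CPM in STD WT libraries. STD WT 1 and HFD WT 2 stood above all others, and HFD WT 1 below all. Fold changes on the log2 scale were −0.23 in HFD KO against HFD WT (interval −1.47 to 1.02) and −0.36 in STD KO against STD WT (−1.59 to 0.87). Of 16 other genes of this pathway, 0 passed in either genotype comparison by edgeR, with 2 at an unadjusted p under 0.05 in each. Of all 16076 genes, 3912 (high fat diet) and 1392 (standard diet) had such a p. Over both diets Inhba, an activin subunit and thus a ligand upstream of Smad3, fell by 1.09 on the log2 scale (adjusted p = 0.0236), a call lost in 5 of 12 fits without 1 library.

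Aldh1a3 (ENSMUSG00000015134, chromosome 7, 66390890 to 66427517, minus strand) makes retinoic acid from retinaldehyde and behaved unlike the other 8. Under the high fat diet it stood at 11.6, 9.74 and 18.4 CPM in KO, against 21.1, 4.47 and 19.0 CPM in WT libraries. On the standard diet the values were 1.39, 3.07 and 2.39 CPM in KO, against 9.31, 4.56 and 2.78 CPM in WT libraries. Each HFD KO library exceeded the highest library of either standard diet group, and 2 of 3 HFD WT libraries did so too. The log2 fold change of HFD KO against STD KO was 2.54 (SE 0.62, interval 1.17 to 3.90, unadjusted p = 0.00188, adjusted p = 0.295 by edgeR). That of HFD WT against STD WT was 1.42 (SE 0.58, interval 0.12 to 2.71, unadjusted p = 0.0348, adjusted p = 1). Over both genotypes it was 1.98 (SE 0.42, adjusted p = 0.244), higher in 5 of 6 high fat libraries than in every standard diet library. DESeq2 called Aldh1a3 in HFD KO against STD KO (adjusted p = 0.00426) and over both genotypes (adjusted p = 0.000619). The fold did not differ between genotypes past the threshold (interaction 1.12, SE 0.83, adjusted p = 0.68).

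Between genotypes Aldh1a3 did not pass. Its log2 fold change was −0.17 in HFD KO against HFD WT (interval −1.43 to 1.09, adjusted p = 0.896) and −1.29 in STD KO against STD WT (−2.62 to 0.05, adjusted p = 0.616). The HFD WT spread rested on HFD WT 2, the library with the lowest Aldh1a3 and the highest values of the other 8 genes in its group. In the retinoic acid pathway, 1 of 12 tested genes fell and none rose in HFD KO against HFD WT (all genes: 562 and 627). It was Rara, a retinoic acid receptor, at 8.59, 11.7 and 9.46 CPM in HFD KO, against 18.1, 25.3 and 18.2 CPM in HFD WT libraries (−1.05, adjusted p = 0.0051). The groups did not overlap, and the call held in all 24 alternative fits. In STD KO against STD WT 0 of 12 passed by edgeR and 0 had an unadjusted p under 0.05, where 1392 of all 16076 genes did.

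By the pattern over the 12 libraries, the genes most like Aldh1a3 among 10848 searched were Asb11, an ankyrin repeat protein of ubiquitin ligases (Pearson r = 0.926 on log2 CPM), the chemokine Ccl28 (0.885) and Pdyn, the precursor of dynorphin opioid peptides (0.834). These r describe 12 libraries that also share group and depth. As the genes were picked for this likeness, their diet differences restate the choice and are given as a description. The same holds for their genotype differences, since Aldh1a3 itself averaged 2.3 CPM in STD KO and 5.6 CPM in STD WT libraries. Their p-values and alternative fits are thus no separate evidence. Asb11 stood at 11.5, 8.98 and 8.83 CPM in HFD KO, 10.7, 6.74 and 10.3 CPM in HFD WT, 3.04, 5.63 and 4.15 CPM in STD KO and 6.56, 5.70 and 3.90 CPM in STD WT libraries. All 6 high fat libraries lay above all 6 standard diet libraries. Pdyn stood at 234.0, 125.6 and 139.3 CPM in HFD KO, 288.5, 193.9 and 247.2 CPM in HFD WT, 32.2, 29.3 and 34.1 CPM in STD KO and 140.9, 137.4 and 66.3 CPM in STD WT libraries. The STD KO libraries thus lay below those of every other group. Between genotypes the log2 fold change of Pdyn was −1.85 in STD KO against STD WT (SE 0.31, adjusted p = 0.0101 by edgeR, a call lost in 2 of 12 fits without 1 library). It was −0.55 in HFD KO against HFD WT (SE 0.30, adjusted p = 0.288) and −1.20 over both diets (SE 0.21, adjusted p = 0.00471), where the call held in all 23 alternative fits.

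The other 8 genes rose and fell together from library to library. All 28 pairs among them had a positive correlation of log2 CPM over the 12 libraries, from 0.445 to 0.91 with a median of 0.813. Aldh1a3 had a negative r with each of the 8, from −0.644 to −0.106. Within HFD WT, library 2 was the highest for all 8 and library 1 the lowest for all 8, and Aldh1a3 ran the opposite way. Within STD WT, library 1 was the highest for all 9 and library 3 the lowest for 8 of 9. Within STD KO, library 2 was the lowest for 7 of 9. HFD KO had no such order, with 5 genes highest in library 2 and 3 in library 3.

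Markers of lymphocytes and other cells moved with these 8 genes. The summed level of 10 macrophage and myeloid markers was 575.4 to 1048 CPM in HFD KO, 293.5 to 1363 CPM in HFD WT, 625.1 to 951.2 CPM in STD KO and 561.4 to 763.0 CPM in STD WT libraries. Over 8 genes and 4 groups, the library with the highest sum was also the highest for the gene in 25 of 32 cases, and the lowest was shared in 26 of 32. The 8 lymphocyte markers, at 53.0 to 289.6 CPM in HFD KO, 23.4 to 450.4 CPM in HFD WT, 118.6 to 180.2 CPM in STD KO and 88.2 to 223.5 CPM in STD WT libraries, gave the same 25 and 26 of 32. In the macrophage sum most of the HFD WT spread came from Cd74 (483 ± 413 CPM) and Ptprc (85.0 ± 93.6 CPM, SD, n = 3), which lymphocytes also express. C1qa, C1qb, C1qc and Csf1r, which mark macrophages, varied little there, with 73.5 ± 2.5, 17.2 ± 1.0, 12.1 ± 1.2 and 14.4 ± 2.2 CPM in that order. Without Cd74 and Ptprc, a choice made after the values were seen, the sum of the other 8 macrophage markers shared the highest library in 17 and the lowest in 18 of 32 cases. In HFD WT that sum was 157.0, 237.9 and 174.9 CPM in libraries 1 to 3, and it shared both for all 8 genes. In STD WT it shared neither for any of the 8 genes. As the 8 genes varied together, the 32 cases rest on 4 groups of libraries.

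The 8 ductal markers, at 797.5 to 941.5 CPM in HFD KO, 529.8 to 1000 CPM in HFD WT, 725.3 to 836.1 CPM in STD KO and 535.5 to 1487 CPM in STD WT libraries, shared the highest library in 21 of 32 cases and the lowest in 23. For the 12 acinar markers these were 17 and 26, for delta and PP cell markers 17 and 13, for alpha cell markers 13 and 19, and for stellate and matrix markers 14 and 16. They were 5 and 1 for endothelial markers, 2 and 4 for Schwann cell and neuron markers, 1 and 3 for adipocyte markers, and 1 and 4 for Ins1 and Ins2 together. No macrophage, lymphocyte or ductal marker was at 0 in any library. The part of other cell types in the levels of the 8 genes was not tested. In HFD KO against HFD WT, where 627 of all 16076 genes rose and 562 fell, 2 of 10 macrophage markers rose, C1qb (log2 fold change 1.01, adjusted p = 0.00896) and C1qc (1.10, adjusted p = 0.0245), with a median of 0.68 over the 10. The median was 1.07 over 10 stellate and matrix markers and −0.63 over 8 lymphocyte markers, and 0 of either list passed by edgeR. Of 7 Schwann cell and neuron markers 4 were tested, 2 had a positive value and Ngfr alone passed (2.86, adjusted p = 0.000968). Of 8 alpha cell markers 5 had a positive value and 1 rose (adjusted p = 0.0428 by edgeR), with a median of 0.12.

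**Figure D4:**
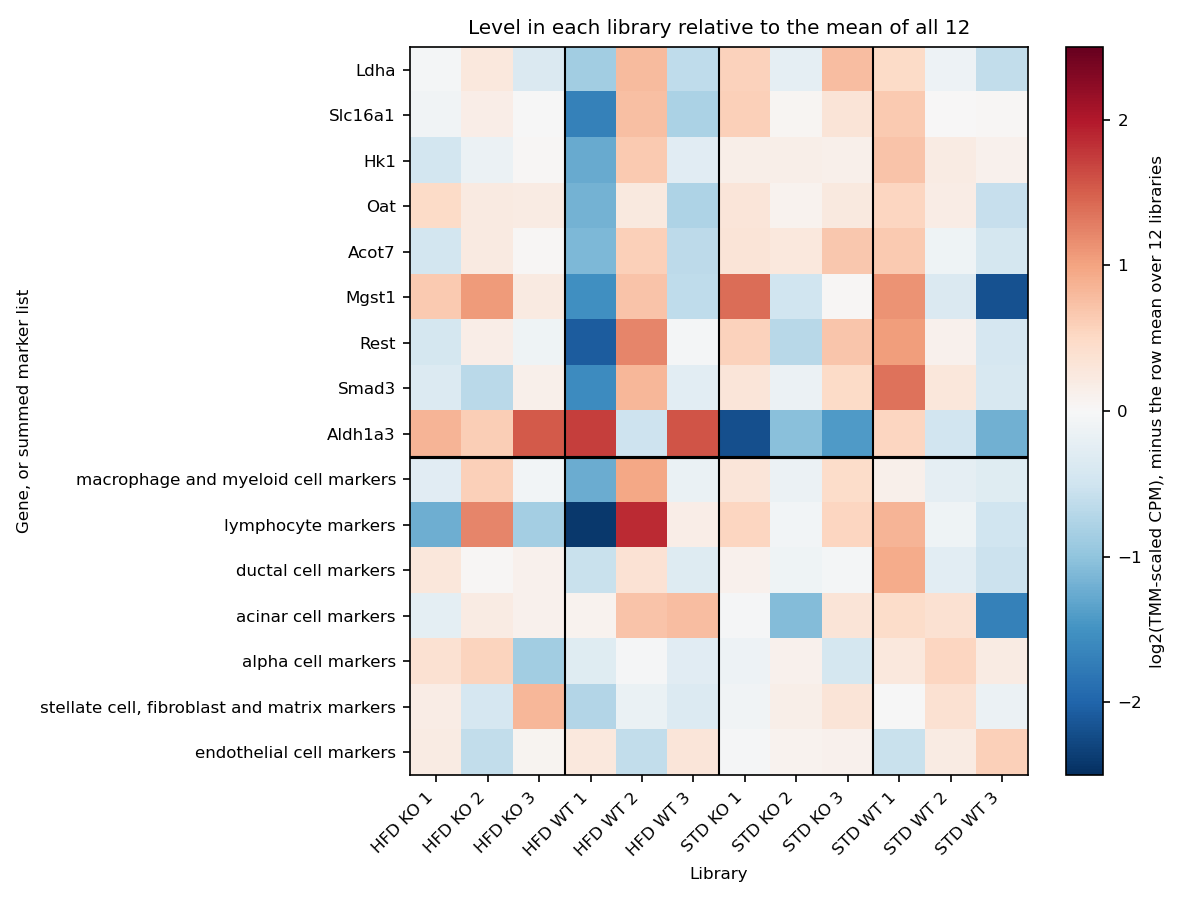
Log2 level of the 9 genes and of 7 summed marker lists in each library, minus the mean of the row over 12 libraries. HFD WT 1 is low and HFD WT 2 high for 8 genes, for lymphocyte markers and for the macrophage sum, whose spread there comes mostly from Cd74 and Ptprc, while Aldh1a3 is high in HFD WT 1.

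The nearest genes in pattern differed by member. For Rest they were Notch2 (r = 0.979), Ccdc88c and Zfp36l1, and for Smad3 they were Smo (0.972), Pygb and Itgb4. For Slc16a1 they were Id2 (0.963), Litaf and Lfng, for Hk1 Pnrc1 (0.957), Litaf and Zfp36, and for Ldha Tent2 (0.96), Rinl and Lgals9. For Mgst1 they were Dbi (0.958), Aldh1a1 and Nit2, for Acot7 Adap1 (0.93), Neurl3 and Tent2, and for Oat Hpgd (0.927), Arhgap11a and Fcgrt. Zfp36l1 is itself in the wider list of disallowed genes.

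Libraries of the wild type groups were farther apart for these genes than those of the knockout groups. The ratio of the highest to the lowest library was wider in WT for 9 of 9 genes under both diets. Its median over the 9 was 1.54 in HFD KO and 4.72 in HFD WT, and 1.54 in STD KO and 2.15 in STD WT. Over all genes tested without a zero in those groups, WT was the wider in 42.3% under the high fat diet and in 52.9% under the standard diet. As 8 of the 9 genes varied together, these are not 9 separate observations, and the wild type spread rested on HFD WT 1, HFD WT 2, STD WT 1 and STD WT 3.

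Of 22 other disallowed genes, 1 passed in each genotype comparison, beside 7.4% (high fat diet) and 1.71% (standard diet) of all genes. It was Fgf1, a fibroblast growth factor, lower in both: 8.34, 6.70 and 8.15 CPM in HFD KO, against 27.9, 22.5 and 31.6 CPM in HFD WT libraries (log2 fold change −1.82, SE 0.19, adjusted p = 0.000278). Under the standard diet it stood at 8.91, 7.57 and 10.1 CPM in KO, against 16.1, 24.1 and 19.7 CPM in WT libraries (−1.17, SE 0.19, adjusted p = 0.00801). The groups did not overlap, and both calls held without any 1 library. The median of the 22 was 0.24 in HFD KO against HFD WT and −0.05 in STD KO against STD WT, beside 0.00 and −0.02 over all genes. In the diet comparisons, 3 of 22 had a positive value in HFD WT against STD WT (median −0.50) and 2 of 22 in HFD KO against STD KO (median −0.25), beside medians of 0.01 and −0.02 and positive values in 51.5% and 47% of all genes. In both diet comparisons 0 of 22 passed by edgeR. The 10 stellate and matrix markers, which share Pdgfra with these 22, gave 1 positive value in HFD WT against STD WT (median −0.765) and 7 in HFD KO against STD KO (median 0.15), and their part in the 22 was not tested. The 9 genes gave 1 and 3 positive values, with medians of −0.33 and −0.33.

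Of 14 dedifferentiation and progenitor genes, 11 were tested and 1 rose in HFD KO against HFD WT, where 627 of all 16076 genes did. It was Serpina7, a serpin best known as the thyroxine carrier of plasma, at 99.2, 64.9 and 33.8 CPM in HFD KO, 16.6, 14.1 and 13.2 CPM in HFD WT, 12.3, 10.5 and 11.96 CPM in STD KO and 11.8, 10.7 and 16.8 CPM in STD WT libraries. HFD KO stood apart from all other groups (2.17 against HFD WT, adjusted p = 0.00238). It passed against STD KO too (2.51, adjusted p = 0.032), a call lost in 10 of 12 fits without 1 library. Neurog3, the transcription factor of endocrine progenitors, was lower over both diets (−0.81, adjusted p = 0.0405), a call lost in 8 of those 12. Among 24 beta cell identity genes, 7 fell and 1 rose in HFD KO against HFD WT, where 562 and 627 of all 16076 genes did. Ffar1, a fatty acid receptor that augments insulin release, stood at 74.6, 61.0 and 86.1 CPM in HFD KO, against 205.5, 145.8 and 207.4 CPM in HFD WT libraries (−1.33, adjusted p = 0.00111). The cation channel Trpm5 (−1.52, adjusted p = 0.0037) and the maturity marker Ucn3 (−1.13, adjusted p = 0.00459) fell with it, while Pcsk1, a prohormone convertase that processes proinsulin, rose (1.34, adjusted p = 0.00717). In STD KO against STD WT, where 59 of all genes fell, Ffar1 alone of the 24 fell (−0.79, adjusted p = 0.0492), a call lost in 9 of 12 fits without 1 library.

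**Figure D5:**
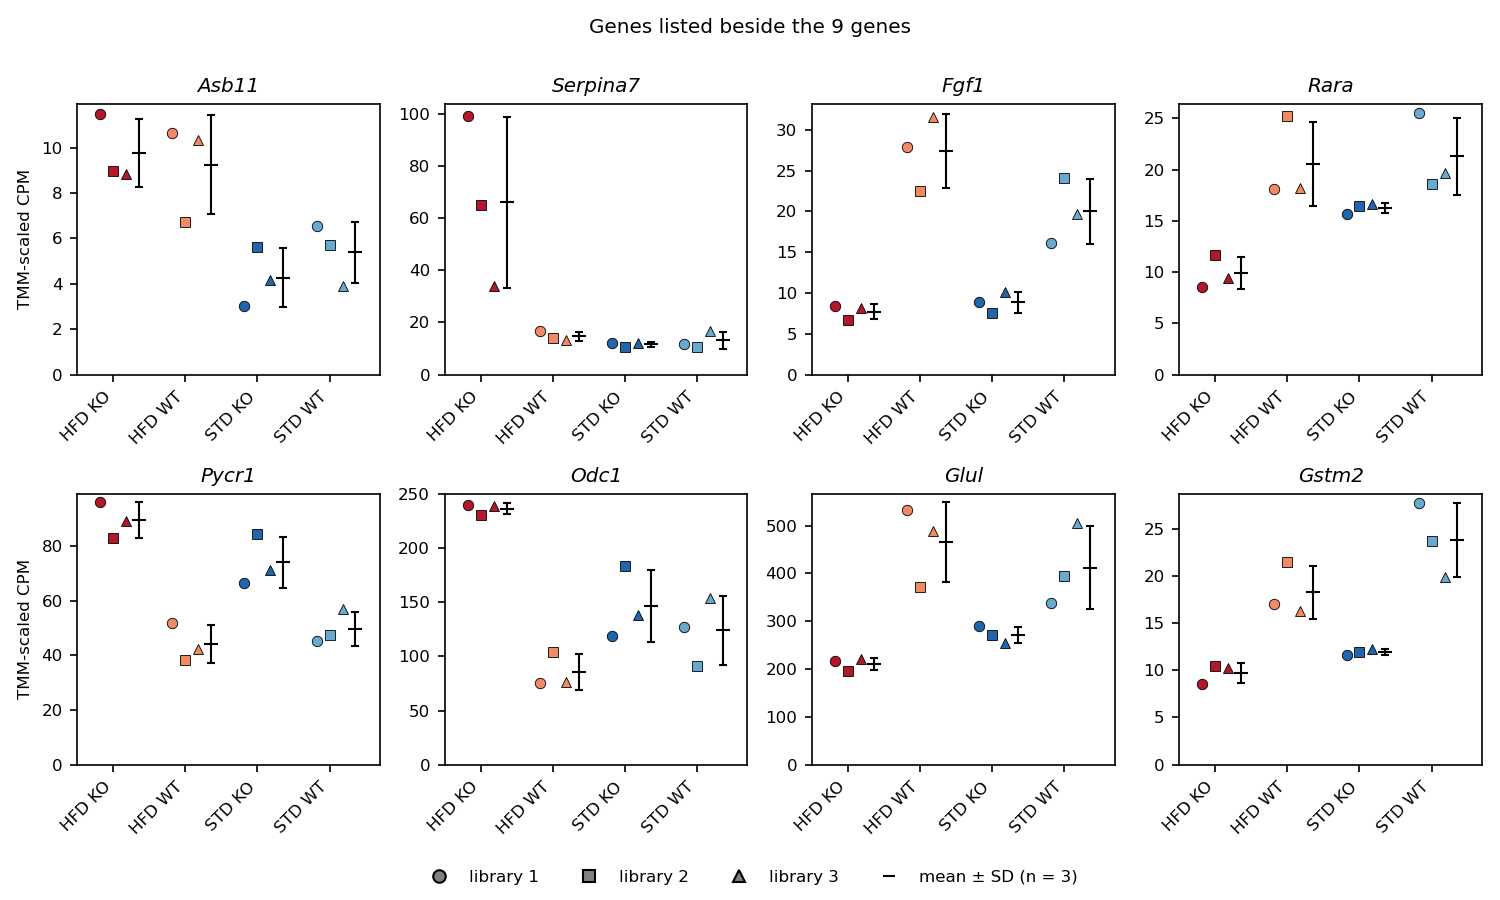
TMM-scaled CPM of 8 genes named beside the set, by group and library, with the mean ± SD (n = 3). Fgf1 and Gstm2 are lower in both KO groups, Odc1 and Serpina7 stand apart in HFD KO, and Asb11 is higher in all 6 HFD libraries than in any STD library.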

How the data were processed

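The authors deposited read counts per gene for 12 islet libraries, aligned to mm10, and FPKM values for the same genes. The submitters' processing notes name TopHat2, Cufflinks and DESeq. Which tool counted reads, with what annotation and strandedness, is not given in the sources used here. The deposited FPKM equalled the count over gene length and library total in each of 257939 nonzero values (relative tolerance 0.0001).

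Tests on the counts used edgeR 4.0.16 (R 4.3.3, with limma 3.58.1 for alternatives): filterByExpr (minimum count 10, minimum total 15), TMM, 1 mean for each of 4 groups, robust quasi-likelihood test and Benjamini-Hochberg adjustment over 16076 genes, checked on simulated data. A gene passed at an adjusted p under 0.05. Log2 fold changes are KO over WT and high fat over standard diet. Intervals (95%) are unadjusted. Alternatives were DESeq2 1.42.0, other scalings and filters, limma on log2(FPKM + 1) or log2(FPKM + 0.1), the compared groups alone, offsets corrected for gene length, no insulin genes, a replicate block, and leaving out libraries.

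The members and gene lists were chosen with earlier results of these data known. Named were the 9 genes, Sirt3, per list up to 4 genes past the threshold with the smallest p (or the 1 smallest), and per member the 3 genes with the highest Pearson r of log2(CPM + 1), at a mean of at least 5 CPM. Ldhb, for its ratio to Ldha, Cplx1 and the macrophage and lymphocyte markers shown with their spread were named outside this rule, after their values were seen. Some relatives of the members are not reported here. Genes of the lactogen list (11 of 11 higher in HFD KO against HFD WT, 10 of 11 in STD KO against STD WT) are not described. Of all 16076 genes, 627 and 216 were higher in those comparisons. Coordinates come from GENCODE M21 (GRCm38) and promoters from RefSeq.

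Deviations from group means of same-numbered HFD KO and HFD WT libraries correlated (r = 0.515, 0.41 and 0.336 across genes), so the numbers were taken to pair the libraries in that comparison, from the data and not from the labels.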

Additional observations from a re-analysis of the deposited data

How the results depend on the processing

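None of the 9 genes passed in 7 comparisons, and under the alternatives the count became 1 in 4 cases: 1 with DESeq2 for HFD KO against STD KO and 1 for the mean diet comparison (Aldh1a3), and 1 without HFD WT 2 for HFD KO against HFD WT and 1 for the mean genotype comparison (Oat). Counts over all genes moved more. HFD KO against HFD WT called 1189 genes in the main fit, 2033 by DESeq2, 779 by limma without a filter, 543 with those groups alone, 745 without STD WT 3 and HFD KO 2, and 519 to 2899 without 1 library. STD KO against STD WT called 275 genes, 484 by DESeq2 and 146 to 296 without 1 library. HFD KO against STD KO called 7 genes, 140 by DESeq2, 2 and 3 by limma at pseudocounts of 1 and 0.1, 2 by limma without a filter, 0 with those groups alone, 2 without STD WT 3 and HFD KO 2, and 0 to 801 without 1 library. HFD WT against STD WT called 0, with 762 at an unadjusted p under 0.05, and 43 by DESeq2. The interaction called 0, with 1271 at an unadjusted p under 0.05, 31 by DESeq2 and 1 without a filter. The mean genotype comparison called 1249, and 823 to 1909 without 1 library. The mean diet comparison called 4, 88 by DESeq2, 11 without a filter, 1 in each of 3 limma fits, 1 without STD WT 3 and HFD KO 2, and 0 to 7 without 1 library. The cause of these shifts was not tested, except that fits without a library or group hold fewer samples. The member values of HFD KO against HFD WT leaned on HFD WT 2: without it Slc16a1 had an adjusted p of 0.0585.

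With the replicate number as a block, HFD KO against HFD WT called 1287 genes, and among the genes named it changed no call beyond Pdk2 and Rcor2. In the other comparisons the libraries share only a number (r of deviations from −0.4 to 0.186). There the block gave 135 genes for STD KO against STD WT, 3 for HFD KO against STD KO and 0 for the mean diet comparison, and no member was called. Under it, adjusted p-values in STD KO against STD WT were 0.104 for Fgf1, 0.0995 for Gstm2, 0.0987 for Pdyn and 0.132 for Ffar1. In HFD KO against STD KO that of Serpina7 was 0.183. With 3 libraries a group and a biological coefficient of variation of 0.307, the limit of what could be detected differs by gene, as the printed intervals show.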
